A study of Mus musculus with 10 samples.

Results

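Thyroxine-binding globulin, encoded by Serpina7, and 8 further genes of thyroid hormone carriage, transport, conversion and response were examined in livers of macroH2A double knockout and wild-type mice. The 9 genes were chosen by name, with earlier results of these data known: Serpina7, Ttr, Thra, Thrb, Dio1, Dio3, Slc16a10, Slco1c1 and Hr. Each of the 9 had 1 probe set with its symbol alone, out of 22180 genes represented in this way. The wild-type group was 5 livers of male mice of the strain 129/S6 (taconic), and the double knockout group was 5 livers of the same strain and sex that lacked both macroH2A1 and macroH2A2, the 2 histone H2A variants with a large non-histone domain. All mice were 2 months old and had been fasted for about 16 h before they were killed in the morning, so no fed group stands beside these values and both groups share the fast. The labels name no promoter or Cre for the deletions, which makes them deletions without a stated tissue restriction. Values are log2 expression levels per probe set, in which a difference of 1 is a doubling, and each is from 1 array per liver.

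The thyroid gland releases mostly thyroxine (T4), which travels in blood bound to thyroxine-binding globulin, transthyretin and albumin, all made in the liver. Cells take the hormone up through membrane transporters, and deiodinases either turn it into the active triiodothyronine (T3) or inactivate it. T3 binds the nuclear receptors encoded by Thra and Thrb, which sit on target genes with a retinoid X receptor as partner and exchange corepressors for coactivators. Thrb is the main receptor gene of hepatocytes, and Dio1 is both the main deiodinase gene of the liver and a target of T3.

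The arrays were alike in their medians, from 6.43 to 6.46, and their labels were checked with the deleted genes. Macroh2a1 lay at 9.51 to 9.66 in the wild-type and at 9.02 to 9.18 in the double knockout arrays, with wild-type replicate 1 at 9.66. The log2 difference was -0.49 (SE 0.05, limma adjusted p = 0.00128). The double knockout mean, 9.11, stayed above the background defined below, and the source of this remaining signal was not tested. Macroh2a2 (log2 difference -0.20, SE 0.13, limma adjusted p = 0.514) could not check the labels, since both group means, 6.32 and 6.12, lay below the background defined below. The tissue label was checked with 12 hepatocyte markers, all above background, whose mean per array was 13.17 to 13.24 in the wild-type group and 13.18 to 13.20 in the double knockout group. Background was taken as the 95th percentile of 1108 olfactory receptor probe sets, 6.54. Markers of other tissues were present unevenly: the mean of 12 pancreas acinar markers ran from 6.11 to 11.05 in wild-type and from 6.18 to 8.85 in double knockout arrays, and that of 15 macrophage markers from 8.66 to 8.98 and from 8.90 to 9.23. All 15 macrophage markers had higher means in double knockout livers, and 2 of them were called, both higher, beside 0.884% of all probe sets called and 0.332% called higher. The 2 were Cd163, with a log2 difference of 0.44 (limma adjusted p = 0.0284), and Marco, with 0.61 (limma adjusted p = 0.0475). More RNA per cell and more cells of a type cannot be told apart in whole liver.

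The start of Serpina7 is shown because this gene had the largest difference of the 9. Serpina7 lies on the X chromosome, and the window below runs from 250 bases before to 50 bases after its annotated start (RefSeq, GRCm38.p6, chrX:139085187-139085486, minus strand, 5′ to 3′). The capitals mark a TATAAA box, the core promoter element bound by the TATA-binding protein.

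Serpina7: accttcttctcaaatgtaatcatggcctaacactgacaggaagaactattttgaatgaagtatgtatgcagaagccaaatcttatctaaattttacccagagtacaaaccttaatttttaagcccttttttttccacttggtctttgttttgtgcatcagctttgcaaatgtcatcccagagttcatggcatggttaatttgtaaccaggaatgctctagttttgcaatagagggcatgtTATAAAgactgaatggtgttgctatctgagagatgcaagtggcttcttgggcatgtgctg

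TATAAA, searched on the given strand, occurred in 8.32% of all 32851 promoter windows of this length and begins 10 bases before this start. A second annotated start of Serpina7 lies 17 bases further along, which puts TATAAA 27 bases before it. Of the 9 genes 6 had a promoter window available. Among these, TATAAA also occurred in the window of Dio3, 31 bases before the start, and in a window of Thrb, 167 bases before. In that of Slco1c1 it began 2 bases after the start, and the windows of Dio1 and Slc16a10 had none. AGGTCA, the hexamer that thyroid hormone and other nuclear receptors can bind, was searched on both strands and is held by 16.3% of windows. It was found for 1 of the 6, in a window of Thrb, 184 bases before the start. These are matches of letters and not measured sites.

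Serpina7 RNA was higher in double knockout livers on average, but the wild-type livers did not all sit low. In wild-type replicates 1 to 5 its level was 8.34, 6.95, 6.76, 6.99 and 7.01. In double knockout replicates 1 to 5 it was 7.87, 9.10, 8.11, 8.07 and 8.72. Wild-type replicate 1 lay above 3 of the 5 double knockout livers, while the other 4 wild-type livers lay within a narrow band below every double knockout liver. The levels of those 4, 6.76 to 7.01, lay not far above the background of 6.54. Whether background signal shaped their spread or the fold was not tested. The group means were 7.21 ± 0.64 and 8.38 ± 0.52 (SD, n = 5 each), a log2 difference of 1.16 (SE 0.30, 95% interval 0.51 to 1.82), or 2.24-fold with an interval of 1.42-fold to 3.54-fold. With Benjamini-Hochberg adjustment over 25335 probe sets this was not called (limma adjusted p = 0.0999, unadjusted p = 0.0023). An exact two-sided permutation test of this single value gave p = 0.0317, where 0.00794 is the smallest that 5 arrays against 5 allow. Serpina7 was chosen with earlier results of these data known, so both unadjusted p-values describe these arrays and are no independent test of genotype.

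**Figure D1:**
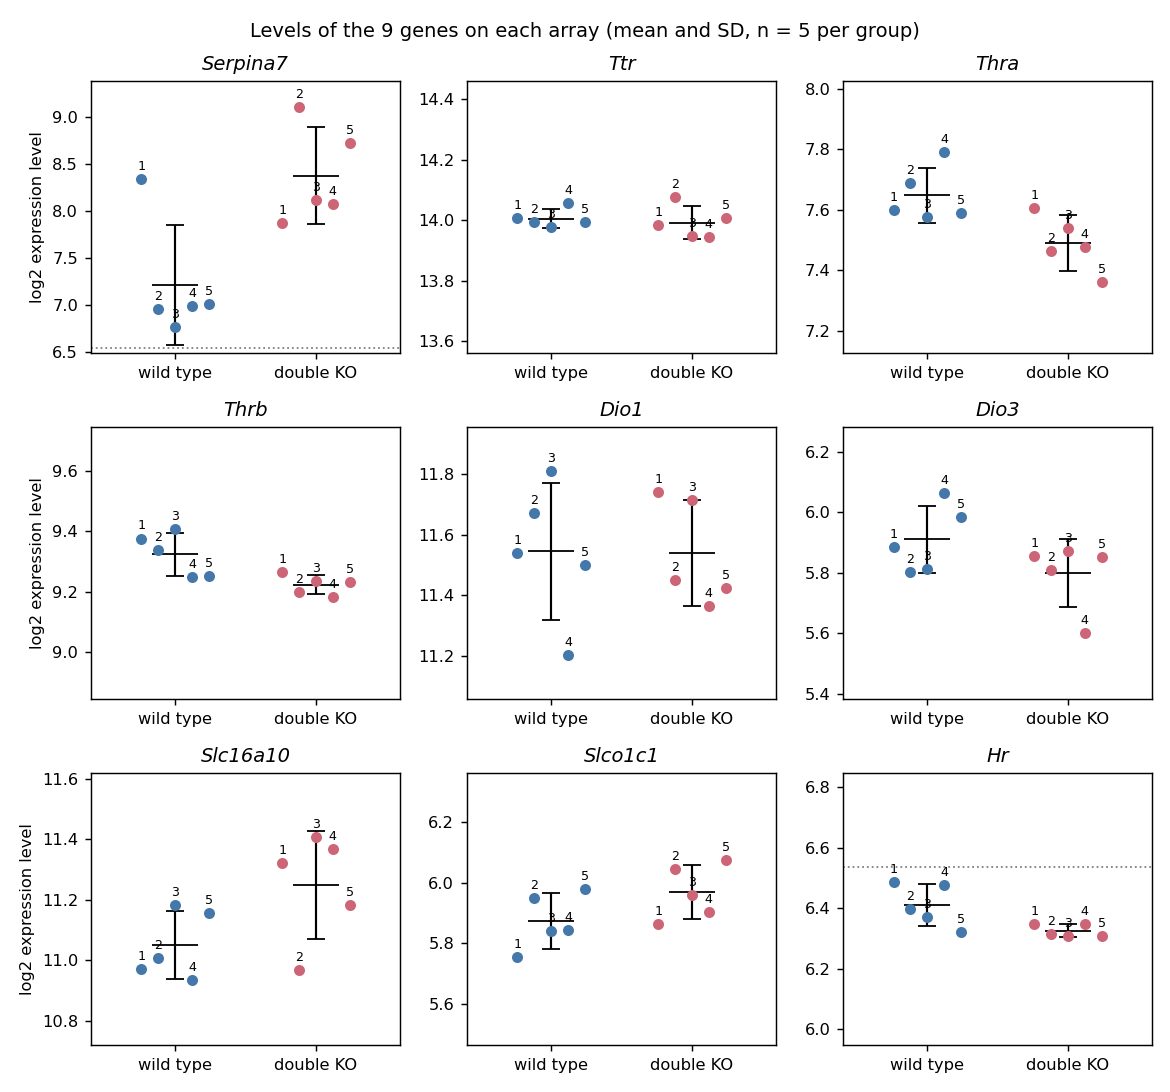
Log2 level of each of the 9 genes (y axis, scale differs by panel) in 5 wild-type (blue) and 5 double knockout (red) livers, numbered by replicate, with mean and SD; a dotted line marks the 6.54 background level where it falls in the panel. Serpina7 shows 4 wild-type livers near 7, wild-type replicate 1 at 8.34 and double knockout livers at 7.87 to 9.10, while the groups of the other 8 genes lie within fractions of a log2 unit.

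The size of the Serpina7 difference was unusual among all probe sets, and so was its spread. Of the 25335 probe sets tested, 12 had a difference of at least this size in either direction, 8 of them higher in double knockout livers, and 6 of the 12 were called. The pooled within-group SD of Serpina7 was 0.58, against a median of 0.10 over all tested probe sets, and lay above that of 99.6% of them. Wild-type replicate 1 was 1.41 above the mean of the other 4 wild-type livers, which stood at 6.93 ± 0.11 (SD, n = 4). Without this array the log2 difference was 1.45 (SE 0.21, 95% interval 0.97 to 1.92), or 2.73-fold, and it was called (limma adjusted p = 0.0192), in a fit that called 0.876% of all probe sets, 0.497% as higher. Leaving out any of the other 9 arrays gave 0.98 to 1.29, none of them called. Wild-type replicate 1 was known to stand apart when the genes were chosen, so the call without it is a description only.

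Wild-type replicate 1 did not look like a double knockout liver at Macroh2a1, where its 9.66 was among the highest wild-type levels. Over all tested probe sets it stood apart from the other wild-type arrays, by a gap of more than 0.71 of the group's range, in 1.79%, compared with 0.77% to 1.72% for the other wild-type and 0.93% to 1.70% for the double knockout arrays. Its macrophage marker mean was 8.69 and its pancreas marker mean 6.19, both near the low end of all 10 arrays. When the macrophage marker mean entered the fit as a covariate, the Serpina7 difference was 1.14 (SE 0.45, limma adjusted p = 0.371), and with the pancreas marker mean it was 1.14 (SE 0.31, limma adjusted p = 0.12). Without the 4 arrays that had the highest pancreas means it was 0.95 (SE 0.39, limma adjusted p = 0.358). Macrophage marker means ran from 8.66 to 8.98 in wild-type and from 8.90 to 9.23 in double knockout arrays. This covariate therefore overlaps with genotype, and its fit could not fully separate the 2. Over all probe sets that fit called 24, against 224 without a covariate.

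**Figure D2:**
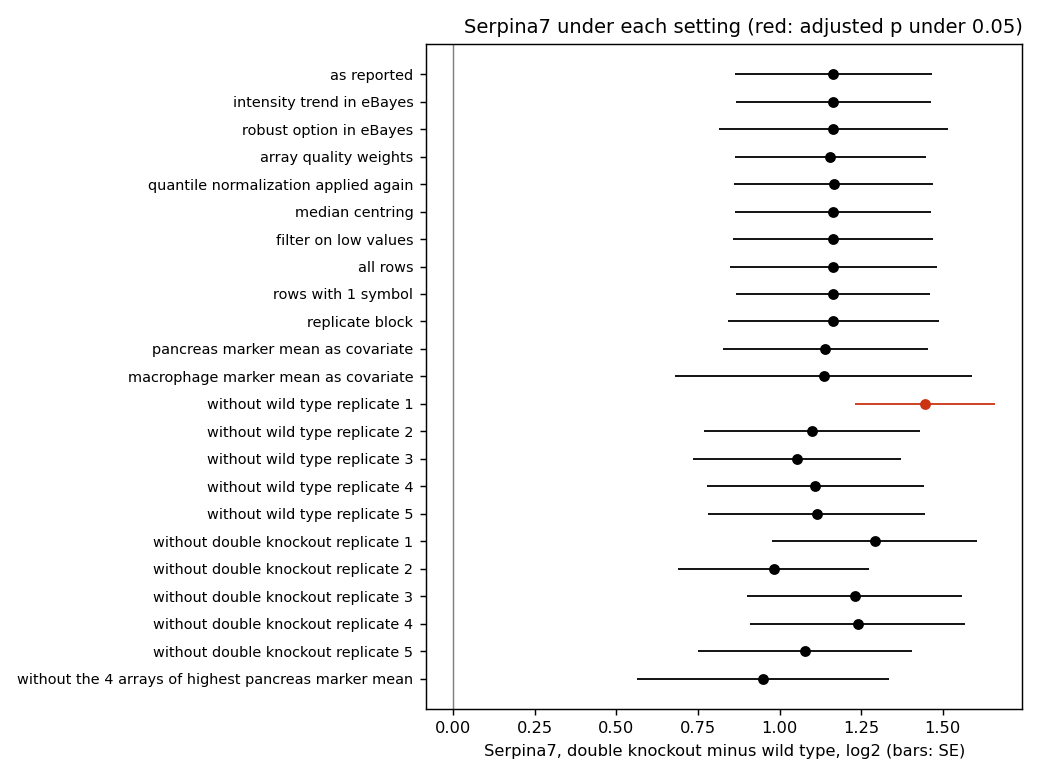
Log2 difference of Serpina7, double knockout minus wild type (x axis, points with SE), as reported and under each other way of fitting or leaving out arrays (y axis). All 23 points lie between 0.95 and 1.45, and the 1 in red, without wild-type replicate 1, is called at an adjusted p under 0.05.

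Ttr, the gene of transthyretin, which carries thyroxine and retinol-binding protein, showed no difference of this kind. Its level was 13.98 to 14.06 in wild-type and 13.94 to 14.08 in double knockout livers, with overlapping groups. The log2 difference was -0.014 (SE 0.04, 95% interval -0.10 to 0.07, limma adjusted p = 0.916). The other carriers had -0.0042 for Alb, albumin, -0.029 for Apob and -0.028 for Apoa1, the apolipoproteins that hold a small share of plasma thyroxine. The means of these 4 genes, 13.41 to 14.19, lie near the highest value of the whole table, 14.37. Whether these probe sets could show a rise at such levels was not tested.

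Of the 9 genes 0 were called in limma, where 0.884% of all probe sets were, 0.332% higher and 0.553% lower, and for 0 of the 9 did the groups separate, against 3.9% of all probe sets. At an unadjusted p under 0.05 there were 4 of the 9, Serpina7, Thra, Thrb and Slc16a10, against 15.1% of all probe sets. Since the 9 were chosen with earlier results of these data known, no excess is read from this count. In double knockout livers 3 of the 9 had higher and 6 lower means, with a median difference of -0.014, beside -0.003 over all tested probe sets.

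Both receptor genes had lower means in double knockout livers, by small amounts. Thra, whose receptor is best known from heart and brain, was at 7.60, 7.69, 7.58, 7.79 and 7.59 in wild-type replicates 1 to 5 and at 7.61, 7.46, 7.54, 7.48 and 7.36 in double knockout replicates 1 to 5. Double knockout replicate 1 lay among the wild-type livers, and the other 4 lay below all of them. The log2 difference was -0.16 (SE 0.06, 95% interval -0.28 to -0.03, limma adjusted p = 0.219).

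Thrb was at 9.38, 9.34, 9.41, 9.25 and 9.25 in wild-type replicates 1 to 5. It was at 9.27, 9.20, 9.24, 9.18 and 9.23 in double knockout replicates 1 to 5. Among double knockout livers replicate 1 alone lay above the lowest wild-type livers. Its log2 difference was -0.10 (SE 0.04, 95% interval -0.20 to -0.01, limma adjusted p = 0.30), so neither receptor gene was called.

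The retinoid X receptor partners were read from the same pathway list. Rxrg, the retinoid X receptor gamma gene, was at 7.92, 8.00, 7.78, 7.91 and 7.95 in wild-type replicates 1 to 5 and at 7.68, 7.69, 7.68, 7.72 and 7.65 in double knockout replicates 1 to 5. Every double knockout liver lay below every wild-type liver, a separation that 3.9% of all probe sets showed in either direction. It fell by 0.23 on the log2 scale (SE 0.05, limma adjusted p = 0.0402) and was the 1 gene called of 63 measured in the pathway list, where 0.884% of all probe sets were called and 0.553% as lower, so a single call is near the background. The call was held in 1 of the 10 fits that left out an array, the fit without wild-type replicate 3, with adjusted p from 0.026 to 0.111 and differences from -0.26 to -0.20. It was also lost with the replicate number as a block (limma adjusted p = 0.117) with the pancreas (adjusted p = 0.0577) or macrophage (adjusted p = 0.27) marker mean as a covariate, over all rows (adjusted p = 0.0821) and without the 4 arrays named above (adjusted p = 0.242). Rxra, the main retinoid X receptor gene of liver, had 0.04 (limma adjusted p = 0.694) and Rxrb 0.02 (limma adjusted p = 0.907).

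Dio1, the type 1 deiodinase gene, varied between livers but not with genotype. It was at 11.54, 11.67, 11.81, 11.20 and 11.50 in wild-type replicates 1 to 5. It was at 11.74, 11.45, 11.71, 11.36 and 11.43 in double knockout replicates 1 to 5. Wild-type replicates 3 and 4 held the highest and the lowest level of all 10 livers. The log2 difference was -0.0068 (SE 0.11, 95% interval -0.25 to 0.23, limma adjusted p = 0.988), an interval that leaves room for changes of up to about 0.25 either way.

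Dio3, the gene of the type 3 deiodinase that inactivates thyroid hormone and is known from placenta and fetal tissue, was below background on every array. It lay at 5.80 to 6.06 in wild-type and at 5.60 to 5.87 in double knockout livers (log2 difference -0.11, SE 0.07, limma adjusted p = 0.475), the lowest value being that of double knockout replicate 4. Dio2, the type 2 deiodinase gene, was in the same range, with means of 6.06 and 6.13. Of 8 genes for deiodinases and for the synthesis of selenoproteins, to which deiodinases belong, 0 were called, beside 0.884% of all probe sets. Secisbp2, which binds selenoprotein messages, had 0.11 (limma adjusted p = 0.308) and Pstk, a kinase of selenocysteine synthesis, -0.08 (limma adjusted p = 0.487).

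Slc16a10, the monocarboxylate transporter MCT10 that carries aromatic amino acids and T3, had a higher mean in double knockout livers. It was at 10.97, 11.01, 11.18, 10.93 and 11.16 in wild-type replicates 1 to 5. It was at 11.32, 10.97, 11.41, 11.37 and 11.18 in double knockout replicates 1 to 5. Double knockout replicate 2, the liver with the highest Serpina7, lay among the wild-type livers, while the other 4 were at or above the highest of them. The log2 difference was 0.20 (SE 0.08, 95% interval 0.02 to 0.38, limma adjusted p = 0.284). Slco1c1, a thyroxine transporter known from brain capillaries, was below background on every array, at 5.75 to 5.98 in wild-type and 5.86 to 6.07 in double knockout livers (log2 difference 0.10, SE 0.06, limma adjusted p = 0.477).

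Of 12 listed transporter genes 11 were measured, 7 with higher and 4 with lower means. Of the 11, 0 were called, beside 0.884% of all probe sets. Slc7a5, the light chain of an amino acid transporter that also carries thyroid hormones, had 0.26 (SE 0.08, limma adjusted p = 0.143). Slco1a1, an organic anion transporter of hepatocytes, had 0.23 (SE 0.08, limma adjusted p = 0.215). The abundant hepatocyte carriers Slco1b2 and Slc10a1 had -0.01 and 0.0051.

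Hr, the hairless corepressor gene and a known T3 target in brain, was just below background, at 6.32 to 6.49 in wild-type and 6.31 to 6.35 in double knockout livers. The log2 difference was -0.08 (SE 0.04, limma adjusted p = 0.378), and the groups overlapped. Among 12 measured coregulator genes 7 had higher and 5 lower means and 0 were called, beside 0.884% of all probe sets. Crebbp, an acetyltransferase coactivator, had 0.09 with groups that did not overlap (limma adjusted p = 0.331), which held for 3.9% of all probe sets. Hdac3, the deacetylase of the corepressor complex, had -0.10 (limma adjusted p = 0.444).

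Of 17 measured target genes known to respond to thyroid hormone in liver 0 were called. Beside 0.884% of all probe sets called, 0 in a list of this size is near the background. Of the 17, 4 had higher and 13 lower means, with a median log2 difference of -0.07. Pdk4, a kinase that restrains pyruvate use, had the largest difference, 0.58 (SE 0.19, limma adjusted p = 0.178), with 10.88 ± 0.49 (SD, n = 5) in the wild-type group and 11.46 ± 0.15 (SD, n = 5) in the double knockout group. Srebf1, a regulator of lipid synthesis, had -0.21 (SE 0.07, limma adjusted p = 0.203). The classical targets Thrsp and Me1 had -0.20 (SE 0.12, limma adjusted p = 0.477) and -0.08 (SE 0.05, limma adjusted p = 0.528), and were chosen for the text for their role after their values were seen. Many of these targets also respond to fasting, which both groups had undergone.

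The list of genes for conjugation, other turnover and binding of thyroid hormone in the cell had 7 of 10 genes measured, among them the T3-binding protein gene Crym, while Ugt1a1, Ugt1a6a and Ugt1a9, of glucuronidation, had no probe set of their own. Of the 7, 2 had higher and 5 lower means, and 0 were called, beside 0.884% of all probe sets. Iyd, the iodotyrosine deiodinase gene, had -0.25 (SE 0.07, limma adjusted p = 0.10), and Sult1b1, a sulfotransferase that acts on thyroid hormones, had -0.33 (SE 0.10, limma adjusted p = 0.155). Sult1b1 was called without double knockout replicate 2, with -0.41 (SE 0.08, limma adjusted p = 0.0482). Sult1a1, a further sulfotransferase, had -0.09 (limma adjusted p = 0.591).

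Over the whole pathway, 63 of 71 listed genes were measured, 26 with higher and 37 with lower means. In limma 0 were called higher, beside 0.332% of all probe sets, and 1, Rxrg, lower, beside 0.553%. At an unadjusted p under 0.05 there were 12 of 63, beside 15.1% of all tested probe sets. Without the 9 genes, which were chosen with earlier results known, there were 8 of 54, near that share. The median difference of the 63 was -0.012, beside -0.003 over all tested probe sets.

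**Figure D3:**
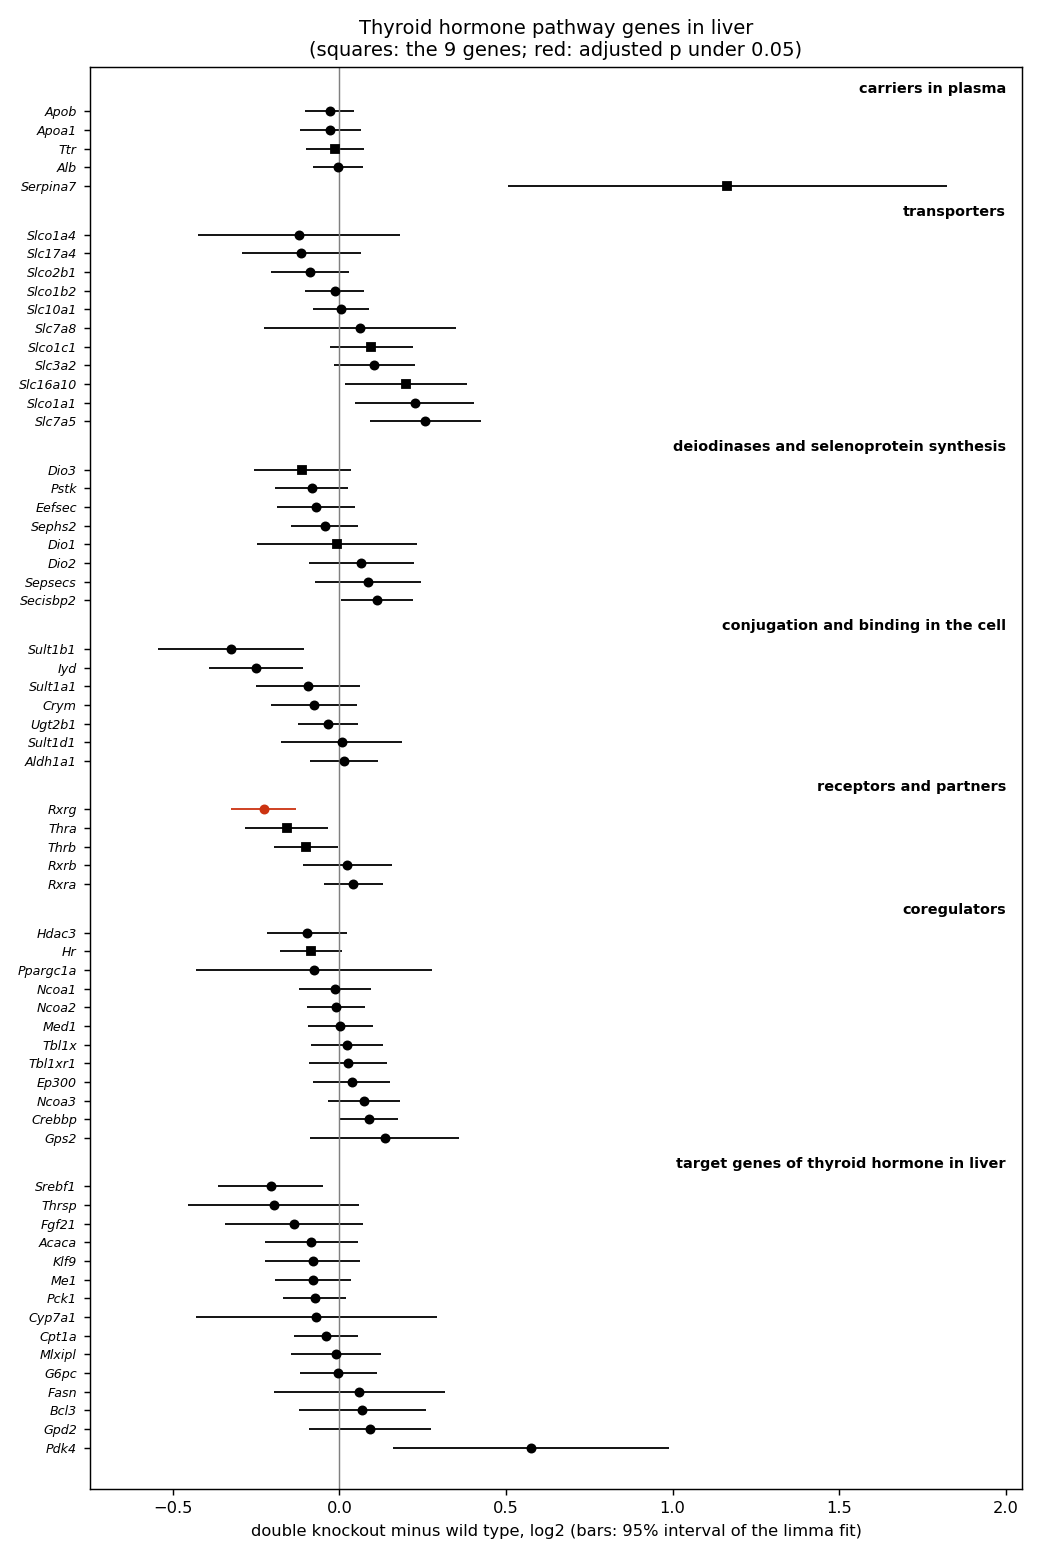
Log2 difference, double knockout minus wild type, with its 95% interval (x axis) for 63 thyroid hormone pathway genes grouped by role, each shown once (y axis); squares are the 9 genes, red marks an adjusted p under 0.05. Serpina7, at 1.16, lies apart from all others, which range from -0.33 for Sult1b1 to 0.58 for Pdk4, and Rxrg is the 1 called.

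Serpina7 was then set beside its gene family. Clade A serpins are a family of mostly secreted proteins that includes antitrypsin and the hormone carriers Serpina7 and Serpina6. Of 25 listed genes 20 were measured, 11 of them above background, and 0 were called, beside 0.884% of all probe sets. Among the 19 other than Serpina7 the log2 differences ran from -0.21, for Serpina3b, to 0.11, for Serpina3a, with a median of -0.03. Only 10 of these 19 lay above background, and both ends of the range, Serpina3b and Serpina3a, lay below it. Serpina6, corticosteroid-binding globulin, the other hormone carrier, was at 12.55 to 12.91 in wild-type and 12.79 to 12.82 in double knockout livers (log2 difference 0.03, SE 0.07, limma adjusted p = 0.91). Without wild-type replicate 1, Serpina7 was the 1 serpin called. Several members of this family resemble one another in sequence, and cross-hybridisation between their probe sets was not tested.

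Neighbouring genes on the X chromosome were examined because macroH2A proteins are best known from the inactive X, although these males have a single X. The 5 nearest measured genes on each side of Serpina7 in RefSeq order had log2 differences from -0.06 to 0.15, 4 higher and 6 lower. Of these neighbours 0 were called, beside 0.933% of all genes. The largest was that of 4930513O06Rik, the next gene on 1 side, with 0.15 (SE 0.06, limma adjusted p = 0.277) at mean levels of 4.60 and 4.75, far below background. Of the 10 neighbours, 1 lay above background, Fam199x, with -0.04 (limma adjusted p = 0.703). Fam199x lies 1996.7 kb from Serpina7, the farthest of the 10, so no nearer neighbour had a level above background. Among 899 measured X-linked genes Serpina7 had the largest positive difference. Of these 0.222% were called, against 0.933% of all genes. The 2 called were Maob, monoamine oxidase B, with -0.22 (SE 0.04, limma adjusted p = 0.0395), and Gabra3, a subunit of a neurotransmitter receptor, with -0.33 (SE 0.07, limma adjusted p = 0.041). Both were named after their values were seen.

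**Figure D4:**
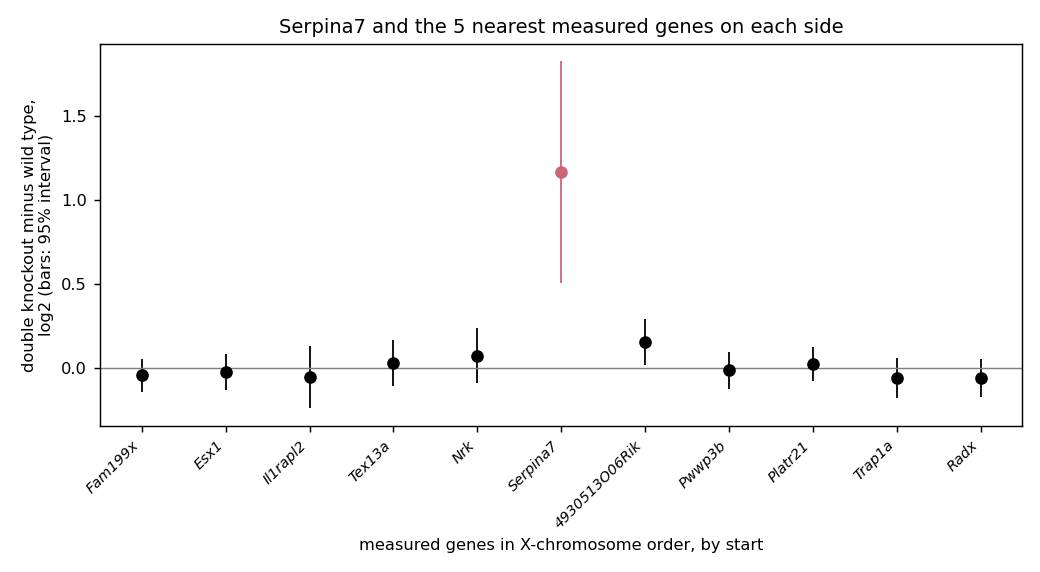
Log2 difference, double knockout minus wild type, with its 95% interval (y axis) for Serpina7 (red) and the 5 nearest measured genes on each side in X-chromosome order (x axis). The neighbours lie between -0.06 and 0.15 and Serpina7 at 1.16.

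The genes whose levels followed Serpina7 most closely over the 10 arrays were sought among 12556 further genes above background. By Pearson correlation these were Yars (r = 0.98, Spearman's rho = 0.82), a tyrosyl-tRNA synthetase, Cnpy2 (r = 0.97, rho = 0.97), a protein of the endoplasmic reticulum, Prok1 (r = 0.92, rho = 0.92), a secreted prokineticin, Ern1 (r = 0.91, rho = 0.84), which encodes the stress sensor IRE1alpha, and Atf6 (r = 0.90, rho = 0.85), a second sensor of protein folding in that compartment. These are the highest of many correlations over 10 arrays that share 2 genotypes, and are given as a description without a p. Without the 2 arrays farthest from the Serpina7 median, double knockout replicate 2 and wild-type replicate 3, r was 0.87 to 0.98. Without wild-type replicate 1 it was 0.92 to 0.98.

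The levels behind the first 2 of these correlations are given array by array. Cnpy2 was at 10.71 in wild-type replicate 1 and at 10.53 to 10.56 in the other 4 wild-type livers, and at 10.62 to 10.77 in double knockout livers. Yars was at 9.49 in wild-type replicate 1, at 9.27 to 9.32 in the other 4 and at 9.49 to 9.65 in double knockout livers. In both genes wild-type replicate 1 lay among or beside the double knockout livers, which follows from their choice by correlation with Serpina7 on these arrays, and neither was called (log2 differences 0.12 and 0.21, limma adjusted p = 0.265 and 0.0848).

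When the group means were subtracted first, so that only differences between livers of 1 genotype counted, the closest were Yars (r = 0.96, rho = 0.62), Cnpy2 (r = 0.95, rho = 0.89), Serpinf2 (r = 0.95, rho = 0.76), the antiplasmin gene, Kng1 (r = 0.95, rho = 0.79), a kininogen gene, and Fabp1 (r = 0.94, rho = 0.85), the liver fatty acid-binding protein gene. Without the 2 arrays farthest from the median, wild-type replicate 1 and double knockout replicate 2, r was 0.73 for Serpinf2, 0.74 for Kng1, 0.80 for Yars, 0.83 for Fabp1 and 0.96 for Cnpy2. Serpinf2 had a lower mean in double knockout livers, with -0.13 (SE 0.04, limma adjusted p = 0.199), so its likeness to Serpina7 lay within the groups. Of the members above background, Thra ran most against Serpina7 over the 10 arrays, with r = -0.73, and Slc16a10 within the groups, with r = -0.68.

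**Figure D5:**
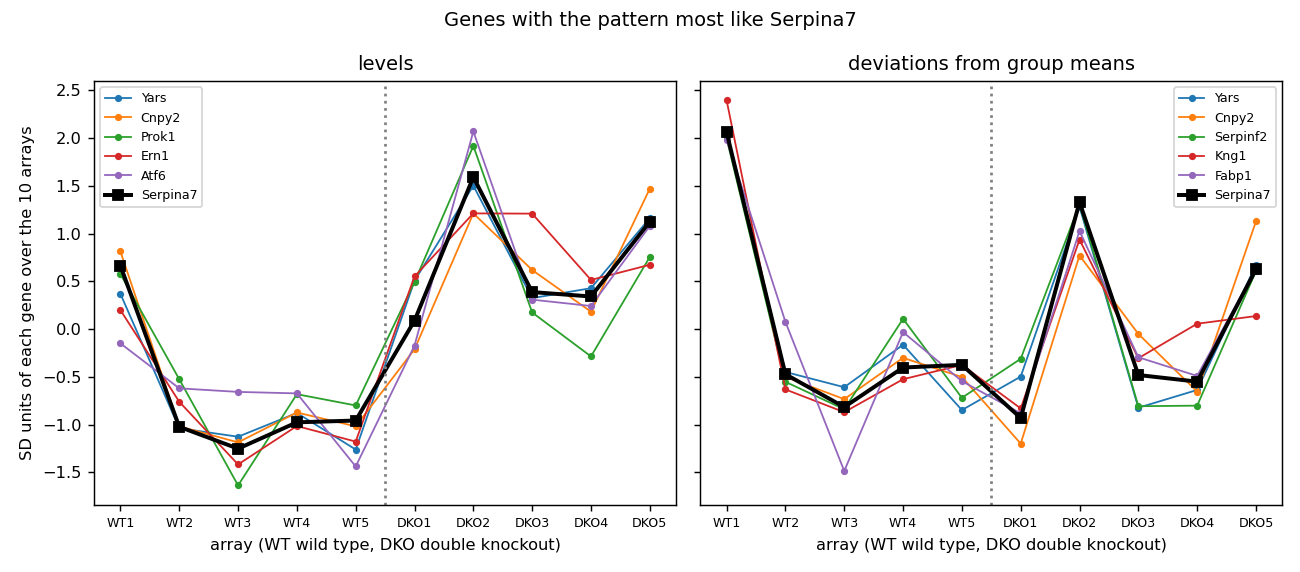
Level of Serpina7 (black) and of the 5 genes most like it (colours) on each array (x axis), each gene in units of its own SD over the 10 arrays (y axis), as levels (left) and as deviations from the group means (right). On both sides wild-type replicate 1 stands above the other 4 wild-type arrays, and double knockout replicate 2 is the highest double knockout array for Serpina7.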

How the data were processed

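Per the labels' protocols, RNA was isolated with Trizol and converted to biotin-labelled cDNA with the Ambion WT Expression Kit. The authors deposited log2 expression levels per probe set for which the submitters' processing notes name Affymetrix Expression Console; algorithm, normalization and version are not given in the sources used. The array medians were near-equal, from 6.43 to 6.46, as they would be in values that had been normalized. Scanner files and dates were not analysed here. The number of arrays, not a depth, limits the precision.

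Of 41345 rows, 23521 had 1 gene symbol, 1814 several and 16010 none in the platform annotation, which can be old; 23328 of the first were matched by gene identifier to RefSeq (GRCm38.p6), used for current names and gene order. A gene's row was the one with the highest mean. The 25335 rows with a symbol were fitted in limma 3.58.1 under R 4.3.3 (lmFit, eBayes, two-sided, group as the only term), with Benjamini-Hochberg adjustment over all of them, and called at an adjusted p under 0.05. Residual degrees of freedom were 8 and prior ones 3.96, and the fit was tested on simulated data. Intervals are 95% intervals of the fit.

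The 9 genes and the lists were chosen with earlier results of these data known. Named were, per list, called genes and, outside the marker lists, the 3 of lowest p. Also named were the neighbours of Serpina7, and the 5 genes of highest correlation with it, predicted genes left out. Others are given as the ends of a range or named for their role. That each liver came from a separate animal is not stated in so many words; if not, p-values measure only the spread between these samples. Alternatives were other variance options, array weights, renormalization, filters, a replicate block, marker covariates and leaving out each array; a fit without the 4 arrays that had the highest pancreas means was added after seeing the data.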

Additional observations from a re-analysis of the deposited data

Results flagged for a closer look

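Serpina7 was picked out because wild-type replicate 1, at 8.34, lay far from the other 4 wild-type livers, the next being 7.01; the gap made up 0.846 of the group's range. Dio3 in double knockout replicate 4, at 5.60 with the next at 5.81, had a gap of 0.762 of the range, below background throughout. Hdac3 in double knockout replicate 5, at 11.07 with the next at 11.11, had a gap of 0.742 in a group with a very small spread. These were 3 of 56 groups of 5 livers examined (28 genes), where chance marks about 1 in 20 groups. Over all tested probe sets an array stood apart in this way for 6.57% in the wild-type and 6.24% in the double knockout group, so nothing is read from the count, and the Serpina7 array was known to stand apart when the genes were chosen.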

How the results depend on the processing

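The Serpina7 difference was positive in all 22 alternatives and called in 1 of them. Leaving out 1 array gave 0.98 to 1.45 (limma adjusted p from 0.0192, without wild-type replicate 1, to 0.208), and the exact permutation p ran from 0.0159, without that array, to 0.0635, with 4 of 10 under 0.05. Leaving out 1 array gave 0 to 1 of the 9 genes called, 0 to 1 clade A serpins, in both the 1 being Serpina7, and 0 to 1 pathway genes, which were Rxrg without wild-type replicate 3, Serpina7 without wild-type replicate 1 and Sult1b1 without double knockout replicate 2. The pathway count was 0 over all rows, with the replicate block, with the pancreas or macrophage marker mean as a covariate and without the 4 arrays that had the highest pancreas means. Over all probe sets, calls numbered 377 with the filter on low values, 75 over all rows, 76 with the replicate block, 24 with the macrophage covariate, 68 without the 4 arrays, and 64 to 253 without 1 array. Same-numbered livers did not deviate together (correlations of their deviations from the group means -0.48, -0.31, 0.13, -0.09 and -0.13), so the numbers were not taken as pairs; under the replicate block Serpina7 had 1.16 (SE 0.32, limma adjusted p = 0.203). Dio1 turned positive with the macrophage covariate (0.16) and without 1 array ranged from -0.092 to 0.059. The other members kept their direction in every alternative that tested them; Dio3, Slco1c1 and Hr fell below the low-value filter. Every gene of the 9 had a single probe set, so no second row could be tried.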

Other observations

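Regulators of liver-specific secretory genes, 10 of them measured, had 0 called members, beside 0.884% of all probe sets, with 4 higher and 6 lower means. Nr5a2, an orphan receptor of bile acid and steroid genes, had a log2 difference of -0.22 (SE 0.06, limma adjusted p = 0.128). Its groups did not overlap, which held for 3.9% of all probe sets. Cebpa, a factor of hepatocyte metabolism, had -0.26 (SE 0.08, limma adjusted p = 0.164), and Nr1i3, the xenobiotic receptor CAR, had -0.22 (SE 0.07, limma adjusted p = 0.172). Hnf4a had 0.05 (limma adjusted p = 0.701).

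Of 8 measured thyroid gland markers 0 were called, with 4 higher and 4 lower means, and their mean per array was 6.03 to 6.29 in wild-type and 6.12 to 6.25 in double knockout livers. Of 9 measured choroid plexus and brain markers 0 were called, with means of 6.36 to 6.44 and 6.33 to 6.40. Of 7 measured cholangiocyte markers 5 had higher and 2 lower means, and 1 was called, Krt23, with 0.85 (SE 0.13, limma adjusted p = 0.0161). These counts stand beside 0.884% of all probe sets called and 0.332% called higher. The differences of the other cholangiocyte markers ran from -0.12, for Sox9, to 0.16, for Krt19, so no change of this cell type is read from Krt23.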
